A study of Rattus norvegicus with 5 samples.

Results

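Transcripts of 10 rat genes of the transforming growth factor beta (TGF-beta) pathway were measured in parietal cortex after neonatal kaolin injection. They were the ligands Tgfb1, Tgfb2 and Tgfb3, the receptors Tgfbr1, Tgfbr2 and Tgfbr3, the signal proteins Smad3 and Smad7, the ligand-binding protein Ltbp1 and the secreted target Tgfbi. They were chosen by name, as every non-control probe whose gene symbol, current or older, is one of these 10, out of 15465 genes that the array names. This gave 13 of its 41012 probes. Of these, 11 probes of 9 genes were bright enough to test, while the only probe of Smad3 was not.

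Rats received kaolin or saline on postnatal day 1, and cortex was taken on postnatal day 22, which is post-kaolin day 21. Kaolin is a clay that obstructs the flow of cerebrospinal fluid, so that the ventricles enlarge (hydrocephalus). Total RNA was compared directly on 5 two-colour Agilent arrays, with Cy3 marking the kaolin sample and Cy5 the saline sample of each array. The labels give no genotype or strain and do not say whether a sample is 1 animal, so p-values measure the spread between these 5 arrays. Both groups had an injection, and no uninjected animals entered the comparison. The dyes were never exchanged, so dye and treatment cannot be told apart. Replicates 1 to 4 lay on one slide and replicate 5 on another.

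Probes well above background numbered 27956 to 29385 per array for kaolin samples and 27372 to 28930 for saline samples. Ratios of replicate 1 and replicate 2 correlated at -0.37 over the 29114 tested probes, whereas those of replicates 3 and 4 correlated at 0.83. Replicate 2 correlated below 0 with every other array (-0.37 to -0.06), and replicate 1 above 0 with replicates 3, 4 and 5 (0.12 to 0.53). The labels give the same dye orientation for all 5 arrays, so the direction of replicate 2 was kept as labelled. Each value below is a log2 ratio of kaolin over saline, with its SD over 5 arrays. In limma with Benjamini-Hochberg adjustment, 0 of 29114 tested probes reached an adjusted p of 0.05, and 5279 (18.1%) had an unadjusted p below 0.05.

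TGF-beta is secreted in a latent complex, in which its own propeptide is tied to the matrix by latent TGF-beta binding proteins such as Ltbp1. Once released, the ligand binds the type II receptor Tgfbr2, which recruits and phosphorylates the type I receptor Tgfbr1. Tgfbr3, or betaglycan, is a coreceptor that presents ligand, in particular Tgfb2. The active receptor phosphorylates Smad2 and Smad3, which enter the nucleus with Smad4, and Smad7 is an induced inhibitor that acts on the receptor. In brain the pathway is known for roles in microglial identity, astrocyte reactivity and scar matrix, and Tgfb1 has long been studied in hydrocephalus.

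The reference promoters of the 10 genes were searched to show which of them carry letters known to be read by Smads or by general factors. RefSeq promoters on GRCr8 were available for all 10, and the 250 bases before each start were read on both strands. The start used lay 700 bp from the edge of the gene model for Tgfb3, 542 bp for Tgfb2 and 272 bp for Tgfbr2. For the other genes it lay at most 121 bp away. The palindromic Smad binding element GTCTAGAC was in 0 of the 10 and in 0.173% of 33469 rat promoters. The AP-1 letters TGANTCA were also in 0 of the 10, against 6.34% of promoters. The cyclic AMP response element TGACGTCA was in 1, Ltbp1, against 1.59%, and the GC box GGGCGG was in 6 (Tgfbr1, Tgfbr2, Tgfbr3, Smad3, Smad7 and Tgfbi), against 30.5%. The absence of letters here says only that they are not in these windows. The windows below are printed 5′ to 3′ on the gene's strand with the motif in capitals, for the single cyclic AMP response element and for a GC box of each of 3 genes.
Ltbp1, chr6:26177392-26177419 (minus strand, motif 108 bases before the start): atttgctgccTGACGTCAcgtctgccgc
Tgfbr1, chr5:66449247-66449272 (plus strand, 141 bases before the start): ggggccccgaGGGCGGggctctccgc
Tgfbr3, chr14:2634189-2634214 (plus strand, 95 bases before the start, motif on the other strand): gcgcccgaccCCGCCCgcgcgtgtgc
Tgfbi, chr17:7990257-7990282 (minus strand, 159 bases before the start): gtgagccgcgGGGCGGtgcaggaggg

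Among the ligands, the means of Tgfb1 and Tgfb3 lay above 0 and that of Tgfb2 below it, and none passed the adjusted threshold. Tgfb1 encodes the ligand made chiefly by microglia and macrophages in injured brain. Its probe lies at chr1:80910123-80910182 (rn4, plus strand) and was printed in 10 spots. The Tgfb1 ratio was -0.0024 in replicate 1, 0.19 in replicate 2, 0.66 in replicate 3, 0.42 in replicate 4 and 0.46 in replicate 5. The SD among spots of one array was between 0.09 and 0.12, below the spread between arrays. The high arrays were replicates 3, 4 and 5, and replicate 1 showed no difference between its channels. The mean was 0.34 ± 0.26 (SD, n = 5), a 1.27-fold ratio with SE 0.10 (limma adjusted p = 0.24). Its size exceeded the absolute mean of 87.6% of tested probes.

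The saline signal of Tgfb1 ran from 6.43 to 6.55 on the log2 scale and its kaolin signal from 6.55 to 7.08. The lowest kaolin signal fell just under the highest saline signal, both in replicate 1, so the groups overlapped there alone. Tgfb1 was a dim probe, and its size depended on how background was treated. With the scanner software's processed signals the ratio was -0.21, 0.81, 1.63, 1.09 and 1.19 in replicates 1 to 5, a mean of 0.90 ± 0.69, or 1.87-fold. With no offset in the background correction the mean was 0.66. With arrays weighted in limma by how closely their ratios followed the fitted means, the mean was 0.41 with a limma adjusted p of 0.043. These weights ran from 0.46 for replicate 2 to 2.38 for replicate 4. In that fit 1572 probes passed on the kaolin side and 1911 on the saline side. The limma adjusted p of Tgfb1 ran from 0.043 to 0.66 over all alternatives.

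Tgfb3, a ligand with roles in palate and lung development, had the smallest spread of the 3 ligands. Its probe lies at chr6:110173856-110173915 (rn4, minus strand). The Tgfb3 ratio was 0.0495, 0.20, 0.29, 0.26 and 0.37 in replicates 1 to 5. All 5 arrays lay on the kaolin side, with replicate 1 the lowest, as it was for Tgfb1. With processed signals Tgfb3 was -0.0031 in replicate 1 and above 0 on the other 4 arrays, with a mean of 0.30 ± 0.19. The mean was 0.23 ± 0.12, a 1.18-fold ratio with SE 0.07 (limma adjusted p = 0.24). Saline signals of Tgfb3 ran from 8.42 to 8.55 and kaolin signals from 8.60 to 8.84. It was the only tested member probe whose 2 groups did not overlap, where 1.45% of tested probes had every kaolin signal above every saline signal, and 1.61% the reverse. Array weights in limma gave 0.25 (adjusted p = 0.048), but the adjusted p ran from 0.048 to 0.66 over all alternatives. Median centring in place of loess moved the median of all tested genes by -0.12 and left Tgfb3 at 0.10.

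Tgfb2, the ligand most dependent on betaglycan and well expressed by astrocytes and neurons, lay on the other side. Its probe lies at chr13:102719362-102719421 (rn4, minus strand). The Tgfb2 ratio was -0.21, 0.16, -0.43, -0.27 and -0.13 in replicates 1 to 5. Replicate 2 alone was above 0, and kaolin signals (7.35 to 7.82) overlapped saline signals (7.53 to 7.82). The mean was -0.18 ± 0.22, a ratio of 0.88 with SE 0.09 (limma adjusted p = 0.34).

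Ratios of the ligands were then set against each other within each array, to ask whether the family moved as one. This was done for 6 pairs of ligands or receptors with a two-sided exact sign-flip test, whose smallest possible p with 5 arrays is 0.0625. Tgfb1 minus Tgfb2 was 0.21, 0.03, 1.09, 0.69 and 0.59, above 0 on 5 of 5 arrays. Its mean was 0.52 ± 0.42, with a 95% interval of 0.0048 to 1.04 and an exact p of 0.0625 (0.19 adjusted over the 6 pairs). Tgfb2 minus Tgfb3 was below 0 on 5 of 5 arrays, with a mean of -0.41 ± 0.26, a 95% interval of -0.74 to -0.09 and the same exact p of 0.0625 (0.19 adjusted). Both pairs thus gave the smallest p that the design allows, and neither passes after adjustment. Tgfb1 and Tgfb3 differed by 0.11 ± 0.17, with a 95% interval of -0.10 to 0.32 (exact p = 0.25, 0.30 adjusted). With processed signals, which widen the ratio of the dim Tgfb1 probe, Tgfb1 minus Tgfb3 was 0.60 and Tgfb1 minus Tgfb2 was 1.15.

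**Figure D1:**
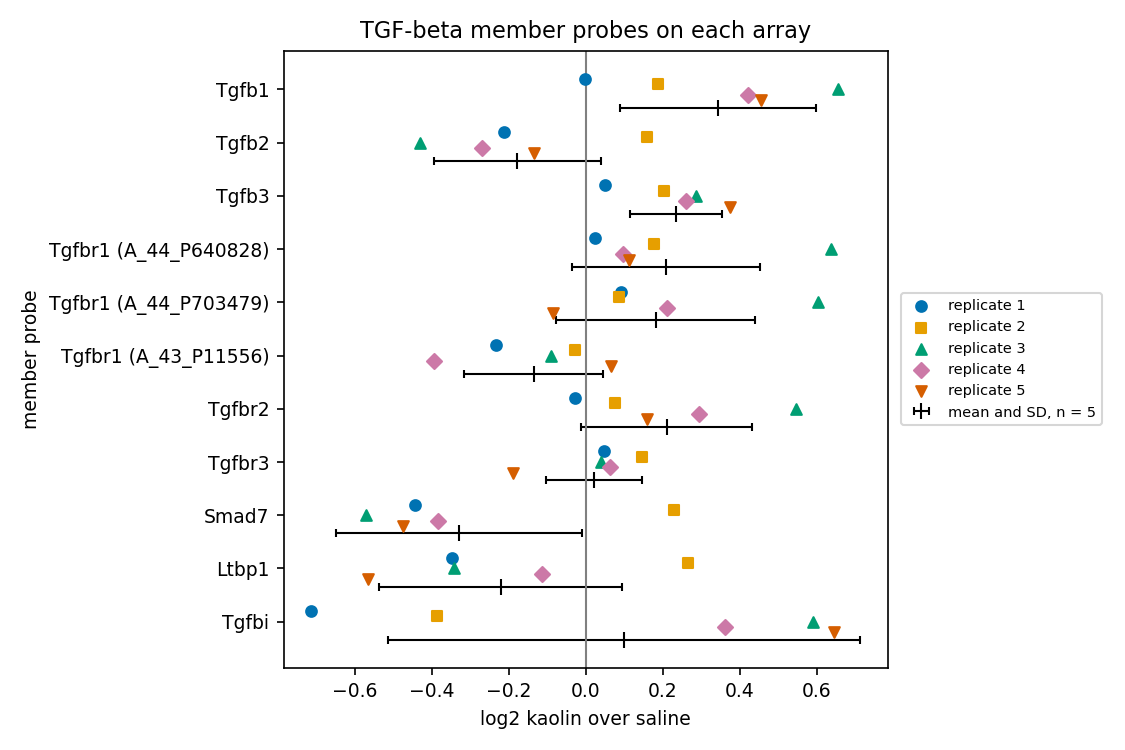
Log2 ratio of kaolin over saline (x axis) for each of the 11 tested member probes (y axis), with 1 symbol per array and the mean and SD over 5 arrays below the symbols. All 5 symbols of Tgfb3 lie above 0, Smad7 and Ltbp1 lie below 0 except in replicate 2, and Tgfbi is split, with replicates 1 and 2 below 0 and replicates 3 to 5 above it.

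The receptors gave smaller values, and the sign for Tgfbr1 depended on the probe. Tgfbr1 encodes the signalling type I receptor kinase. Its brightest probe, A_44_P640828 at chr5:64032274-64032333 (rn4, plus strand), gave 0.025, 0.18, 0.64, 0.10 and 0.11 in replicates 1 to 5. All 5 arrays lay above 0, but replicate 3 stood far above the rest. The mean was 0.21 ± 0.24 (limma adjusted p = 0.31), and it was 0.10 without replicate 3. With processed signals the mean of this Tgfbr1 probe was 0.54. Kaolin signals (6.96 to 7.36) overlapped saline signals (6.73 to 7.06).

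A neighbouring Tgfbr1 probe, A_44_P703479, starts 821 bp away at chr5:64031453-64031512. It gave 0.09, 0.09, 0.60, 0.21 and -0.08, again highest in replicate 3, with a mean of 0.18 ± 0.26 (limma adjusted p = 0.37). The third, A_43_P11556, starts 23509 bp from the brightest probe, at chr5:64008765-64008824. It gave -0.23, -0.03, -0.09, -0.39 and 0.07, with a mean of -0.14 ± 0.18 (limma adjusted p = 0.40). Its replicate 3 was not high, and it was well above background on only 3 kaolin and 4 saline arrays. The 3 probes therefore gave no common direction for Tgfbr1. No gene models on rn4 were used here, so the exon or UTR that each probe reads is not given.

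Tgfbr2, the ligand-binding type II receptor, has a probe at chr8:120608696-120608755 (rn4, minus strand). It stood well above background for 5 kaolin samples and 0 saline samples, so its ratio rests on a saline side close to background. The Tgfbr2 ratio was -0.03, 0.08, 0.55, 0.29 and 0.16 in replicates 1 to 5. Replicate 3 was the highest array, as for the brightest Tgfbr1 probe, and kaolin signals (6.41 to 6.86) overlapped saline signals (6.31 to 6.51). The kaolin mean was 6.60 and the measured saline mean 6.39, a 1.16-fold ratio. The floors used for the saline bound (6.06 to 6.19) lay below this probe's saline signals, so the bound equalled the measured mean. The bound therefore adds no limit, and the saline level and the ratio remain uncertain. No p is given, since the probe passed the filter through its kaolin samples alone. With processed signals the mean Tgfbr2 ratio was 0.76 ± 0.58 in place of 0.21 ± 0.22, and it was 0.13 without replicate 3.

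Tgfbr3, the betaglycan coreceptor, was the member nearest to 0. Its probe at chr14:3239308-3239367 (rn4, plus strand) gave 0.0475, 0.15, 0.04, 0.06 and -0.19 in replicates 1 to 5. Replicate 5 alone was below 0. The mean was 0.02 ± 0.13 (limma adjusted p = 0.88), smaller in size than that of all but 10.4% of tested probes. Under processed signals it was -0.03, so its sign is not settled. Tgfbr1 minus Tgfbr3 gave 0.19 (95% interval -0.14 to 0.51, exact p = 0.125, 0.25 adjusted), and 0.57 with processed signals. Pairs with Tgfbr1 use its brightest probe, at 0.21, where the mean over all its tested probes was 0.085. Differences from Tgfbr2 are given without a test, since it passed the filter through its kaolin samples alone. With the measured values Tgfbr1 minus Tgfbr2 was -0.0009 (-0.21 with processed signals) and Tgfbr2 minus Tgfbr3 was 0.19 (0.78 with processed signals).

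**Figure D2:**
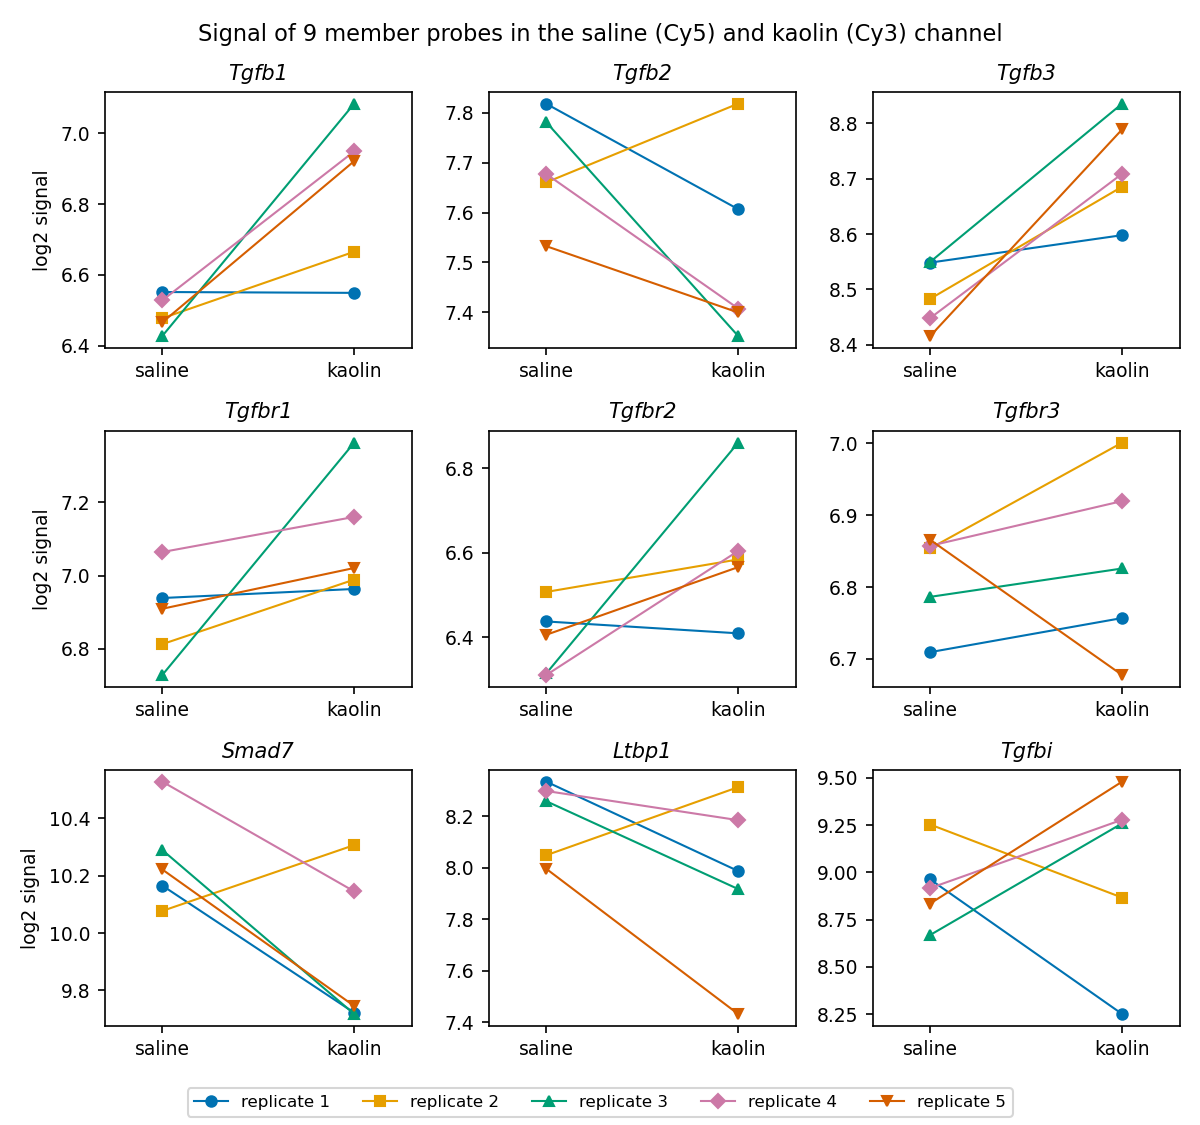
Normalized log2 signal (y axis) of 9 member probes in the saline (Cy5) and kaolin (Cy3) channel, with 1 line per array. The lines of Tgfb3 all climb, from 8.42 to 8.55 in saline to 8.60 to 8.84 in kaolin, while those of Tgfb2, Smad7 and Ltbp1 descend except in replicate 2; each panel has its own scale, and levels are not compared between probes.

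Downstream of the receptors, Smad7 could be read and Smad3 could not. Smad3 encodes the Smad that binds DNA in response to TGF-beta. Its probe, which spans 7056 bp of the rn4 genome at chr8:67804625-67811680 (minus strand), was well above background on 0 of 5 arrays in either channel, and it was not tested. Smad7 encodes the inhibitory Smad that recruits ubiquitin ligases to the receptor, and its own gene is switched on by TGF-beta signalling. Its probe lies at chr18:72323004-72323063 (rn4, plus strand).

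The Smad7 ratio was -0.44 in replicate 1, 0.23 in replicate 2, -0.57 in replicate 3, -0.38 in replicate 4 and -0.48 in replicate 5. The 4 arrays below 0 lay close together, and replicate 2 stood alone on the other side. The mean was -0.33 ± 0.32, a ratio of 0.80 with SE 0.12 (limma adjusted p = 0.25). Kaolin signals ran from 9.72 to 10.31 and saline signals from 10.08 to 10.53, so the groups overlapped, through replicate 2 and replicate 4. Without replicate 2 the mean of Smad7 was -0.47 with a limma adjusted p of 0.041. It was the only member past the threshold in that fit, where 716 of 29113 probes passed on the kaolin side and 820 on the saline side. With the sign of replicate 2 turned, an alternative chosen after seeing the data, the mean of Smad7 was -0.42 (limma adjusted p = 0.049). Of all tested probes 245 then passed on the kaolin side and 244 on the saline side. With array weights the mean of Smad7 was -0.40 (limma adjusted p = 0.043). The adjusted p of Smad7 ran from 0.041 to 0.66 over all alternatives. Median centring gave -0.50.

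Over the 9 tested members the mean lay above 0 for 6 and below 0 for 3, where 56.4% of 12282 tested genes (49.2% of tested probes) lay above 0. Tgfbr2, 1 of the 6, passed the filter through its kaolin samples alone. By limma 0 of the 9 passed the adjusted threshold, as did 0 of all tested probes (0%). At an unadjusted p below 0.05 there were 2 members on the kaolin side (Tgfb1 and Tgfb3), where 12.2% of tested genes (8.82% of probes) were, and 1 on the saline side (Smad7), where 6.63% of genes (9.32% of probes) were. Ratios above 0 on 5 of 5 arrays were found for 2 members (Tgfb3 and the brightest Tgfbr1 probe), where 7.92% of tested genes (6.22% of probes) had them, and ratios below 0 on 5 of 5 arrays for 0, where 5.25% of genes (6.64% of probes) had them. Counts this small do not set the members apart from the background. With array weights in limma 3 members passed (Tgfb1, Tgfb3 and Smad7), when 1572 probes passed on the kaolin side and 1911 on the saline side. Within the slide of replicates 1 to 4 the means were 0.32 for Tgfb1, 0.20 for Tgfb3 and -0.29 for Smad7, and with the slide as a random block they were 0.34, 0.23 and -0.32, with 0 members past the threshold in limma either way. The other slide held 1 array and gives no test.

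Other Smads, cofactors and brakes of the pathway were read from a list of 22 genes, of which 17 were tested. Of these, 10 had a mean above 0, 2 had an unadjusted p below 0.05 in each direction and 0 passed the adjusted threshold in limma. The list median was 0.02, against 0.03 for all tested genes, of which 56.4% had a mean above 0. Tgif1, a corepressor of Smad2 and Smad3, was at 0.48 ± 0.27 and above 0 on 5 of 5 arrays (limma adjusted p = 0.24). It passed without replicate 2, at 0.58 (limma adjusted p = 0.041), in the fit where 716 probes passed on the kaolin side. Tab2, an adaptor of the kinase encoded by Map3k7 (TAK1), was at 0.20 ± 0.13 (limma adjusted p = 0.25), and Map3k7 itself at -0.23 ± 0.22 (limma adjusted p = 0.27). Usp15, a deubiquitinase that acts on the type I receptor, was at -0.17 ± 0.10, below 0 on 5 of 5 arrays (limma adjusted p = 0.26).

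Receptor partners and pseudoreceptors made a list of 12 genes, with 11 tested, 5 of them above 0 and a list median of -0.01. At an unadjusted p below 0.05 there were 0 on the kaolin side and 2 on the saline side, and 0 passed the adjusted threshold in limma. Pmepa1, a TGF-beta induced gene whose product keeps Smad2 and Smad3 from the receptor, was at -0.41 ± 0.35 and below 0 on 5 of 5 arrays (limma adjusted p = 0.24). On each array its values were -0.45, -0.02, -0.70, -0.07 and -0.79 in replicates 1 to 5, lowest in replicates 3 and 5. Acvr1c, which encodes the type I receptor ALK7, was at -0.48 ± 0.51 (limma adjusted p = 0.25). The activin receptor gene Acvr2b was at -0.24 ± 0.28 (limma adjusted p = 0.30) and the pseudoreceptor gene Bambi at 0.13 ± 0.20 (limma adjusted p = 0.45).

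Ltbp1 ties latent TGF-beta to fibrillin fibres of the matrix. Its probe lies at chr6:19942709-19942768 (rn4, minus strand). The Ltbp1 ratio was -0.35, 0.26, -0.34, -0.11 and -0.56 in replicates 1 to 5. As for Smad7 and Tgfb2, replicate 2 alone was above 0. The mean was -0.22 ± 0.31, a ratio of 0.86 with SE 0.12 (limma adjusted p = 0.35), and kaolin signals (7.43 to 8.31) overlapped saline signals (7.996 to 8.33). Without replicate 2 the mean of Ltbp1 was -0.34 (limma adjusted p = 0.073), and without replicate 5 it was -0.13 (limma adjusted p = 0.61).

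Of 19 other genes of latency and activation, 14 were tested, 8 had a mean above 0 and the list median was 0.05. With 1 array left out the median ran from -0.02 (without replicate 5) to 0.15 (without replicate 1), and it was 0.0006 without replicate 4. At an unadjusted p below 0.05 there was 1 on the kaolin side and 0 on the saline side, with 0 past the adjusted threshold in limma. That 1 was Nrros, whose product holds latent TGF-beta on microglia and macrophages, at 0.06, 0.20, 0.96, 0.35 and 0.78 in replicates 1 to 5. All 5 arrays were above 0, the highest being replicates 3 and 5, and the mean was 0.47 ± 0.38 (limma adjusted p = 0.24). Mmp14, a membrane protease able to release latent TGF-beta, was at 0.59 ± 0.79 with replicate 1 at -0.58 (limma adjusted p = 0.30). The gene of the activating integrin subunit Itgb6 was at -0.23 ± 0.28 (limma adjusted p = 0.31), and Ltbp4 at -0.19 ± 0.33 (limma adjusted p = 0.42). Thbs1, Lrrc32, Itgb8 and Plg were on the array but too dim to test.

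**Figure D3:**
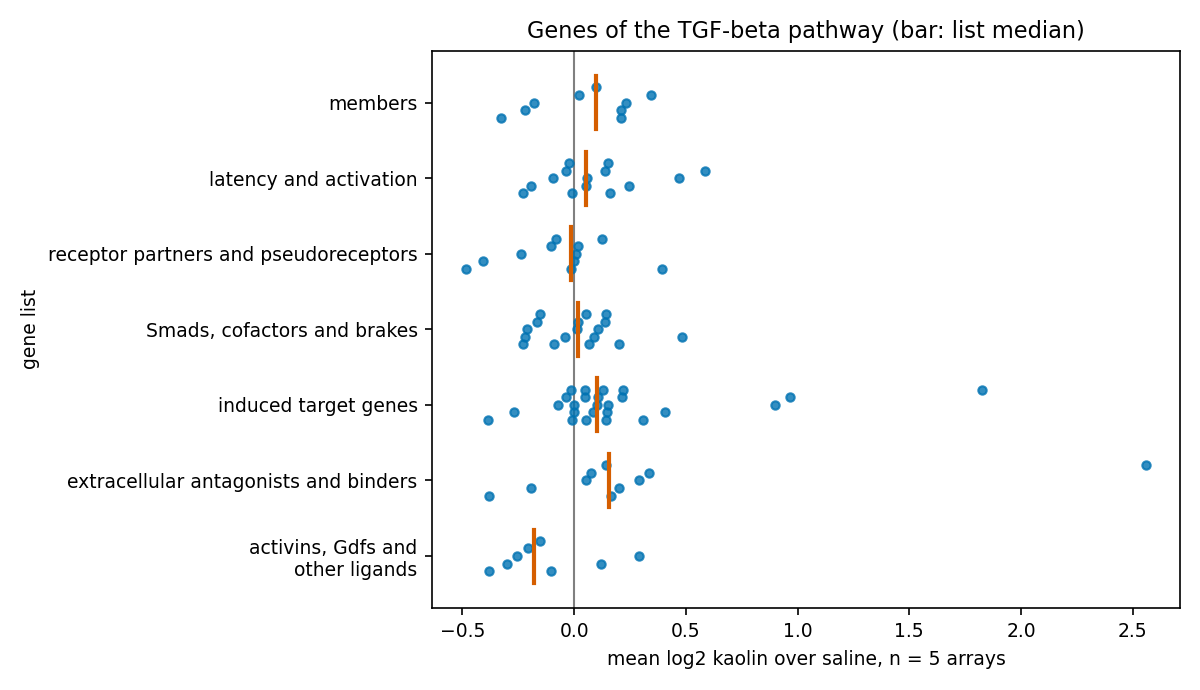
Mean log2 ratio of kaolin over saline over 5 arrays (x axis) for every tested gene of the members and of the 6 pathway lists (y axis), 1 point per gene, with a bar at the list median. List medians lie between -0.18 and 0.15, and the points farthest to the right are A2m at 2.56 and Timp1 at 1.83.

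Tgfbi encodes a secreted matrix protein that is strongly induced by TGF-beta and binds integrins. Its tested probe, A_44_P620106 at chr17:13905255-13905314 (rn4, minus strand), was named through the description column of the files. The Tgfbi ratio was -0.71, -0.39, 0.59, 0.36 and 0.65 in replicates 1 to 5. Replicates 1 and 2 lay clearly below 0 and replicates 3, 4 and 5 clearly above it. The mean was 0.10 ± 0.61, a ratio of 1.07 with SE 0.22 (limma adjusted p = 0.82). Its spread was the widest of the members, and kaolin signals (8.25 to 9.48) overlapped saline signals (8.67 to 9.25). The mean turned negative without replicate 3 (-0.02), without replicate 5 (-0.04) and under median centring (-0.05). Another Tgfbi probe, A_44_P548985, starts 14259 bp away at chr17:13919514-13919573 and was well above background on 0 of 5 arrays.

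A list of 30 further genes known to be induced by TGF-beta had 25 tested, of which 18 had a mean above 0 and the median was 0.10. Among all tested genes 56.4% had a mean above 0. At an unadjusted p below 0.05 there were 3 on the kaolin side and 1 on the saline side, with 0 past the adjusted threshold in limma. Under median centring the list median was -0.10, as was the median of all tested genes, and without replicate 3 it was 0.04. Array medians of the list were 0.0006, -0.05, 0.22, 0.16 and 0.26 in replicates 1 to 5, lower in replicates 1 and 2 than on the other 3 arrays.

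The genes of this list with the smallest p were Tagln, Timp1, Tnc and Col5a1. Tagln, which encodes a smooth muscle actin-binding protein, was at 0.67, -0.05, 1.68, 0.78 and 1.75 in replicates 1 to 5. Replicate 2 was the only array not above 0, and the mean was 0.96 ± 0.75 (limma adjusted p = 0.24). Timp1, a metalloproteinase inhibitor made by reactive astrocytes, was at -0.20, -0.41, 3.17, 3.39 and 3.20. It was split between the same arrays as Tgfbi, with a mean of 1.83 ± 1.95 (limma adjusted p = 0.25). The matrix gene Tnc was at 0.03, -0.18, 0.67, 0.98 and 0.55, with a mean of 0.41 ± 0.47 (limma adjusted p = 0.27). Col5a1, a fibrillar collagen gene, was at -0.39 ± 0.37, with replicate 2 alone above 0 (limma adjusted p = 0.25). Tagln passed the threshold without replicate 2, at 1.22 (limma adjusted p = 0.043), as did 716 probes on the kaolin side in that fit.

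Extracellular antagonists and binders of the superfamily made a list of 11, with 10 tested, 8 of them above 0 and a median of 0.15. That median was 0.03 without replicate 3, 0.0495 without replicate 5 and -0.04 under median centring. At an unadjusted p below 0.05 there were 2 on the kaolin side and 1 on the saline side, with 0 past the adjusted threshold in limma. A2m, which encodes the protease inhibitor alpha-2-macroglobulin that also binds TGF-beta, was at -0.24, -1.14, 4.42, 4.42 and 5.32 in replicates 1 to 5. The gap between replicates 1 and 2 and the other arrays was wider than for Timp1, and the mean was 2.56 ± 3.002 (limma adjusted p = 0.26). Fstl1, a secreted follistatin-like glycoprotein, was above 0 on 5 of 5 arrays at 0.29 ± 0.14 (limma adjusted p = 0.24). Emilin1, whose product blocks processing of the TGF-beta precursor, was at 0.34 ± 0.45 (limma adjusted p = 0.31). The activin antagonist gene Fst was at -0.38 ± 0.37 (limma adjusted p = 0.25).

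Of 13 other ligands of the superfamily, 8 were tested, 2 had a mean above 0 and the median was -0.18. At an unadjusted p below 0.05 there were 0 on the kaolin side and 2 on the saline side, Inha and Gdf10, with 0 past the adjusted threshold in limma. Inha, the inhibin alpha subunit gene, was at -0.38 ± 0.26 (limma adjusted p = 0.24). Without replicate 2 it passed at -0.48 (limma adjusted p = 0.043), in the fit where 820 probes passed on the saline side. Gdf10 encodes a ligand of the bone morphogenetic protein group. It was at -0.26, -0.05, -0.36, -0.53 and -0.31, below 0 on 5 of 5 arrays, with a mean of -0.30 ± 0.17 (limma adjusted p = 0.24). Amh was at -0.20 ± 0.19 (limma adjusted p = 0.28). Gdf15, a stress-induced ligand and 1 of the 2 above 0, was well above background on 4 kaolin and 2 saline arrays and so passed the filter through kaolin. Its measured mean was 0.29 ± 0.46, from 0.11 without replicate 3 to 0.74 with processed signals. Of the 6 genes read in both channels 1 had a mean above 0. Over the 6 pathway lists together 85 of 107 genes were tested, 51 had a mean above 0, and 8 in each direction had an unadjusted p below 0.05. The shares over all tested genes given above (56.4% above 0, 12.2% and 6.63% with such a p) are the background for these counts and for those of each list.

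**Figure D4:**
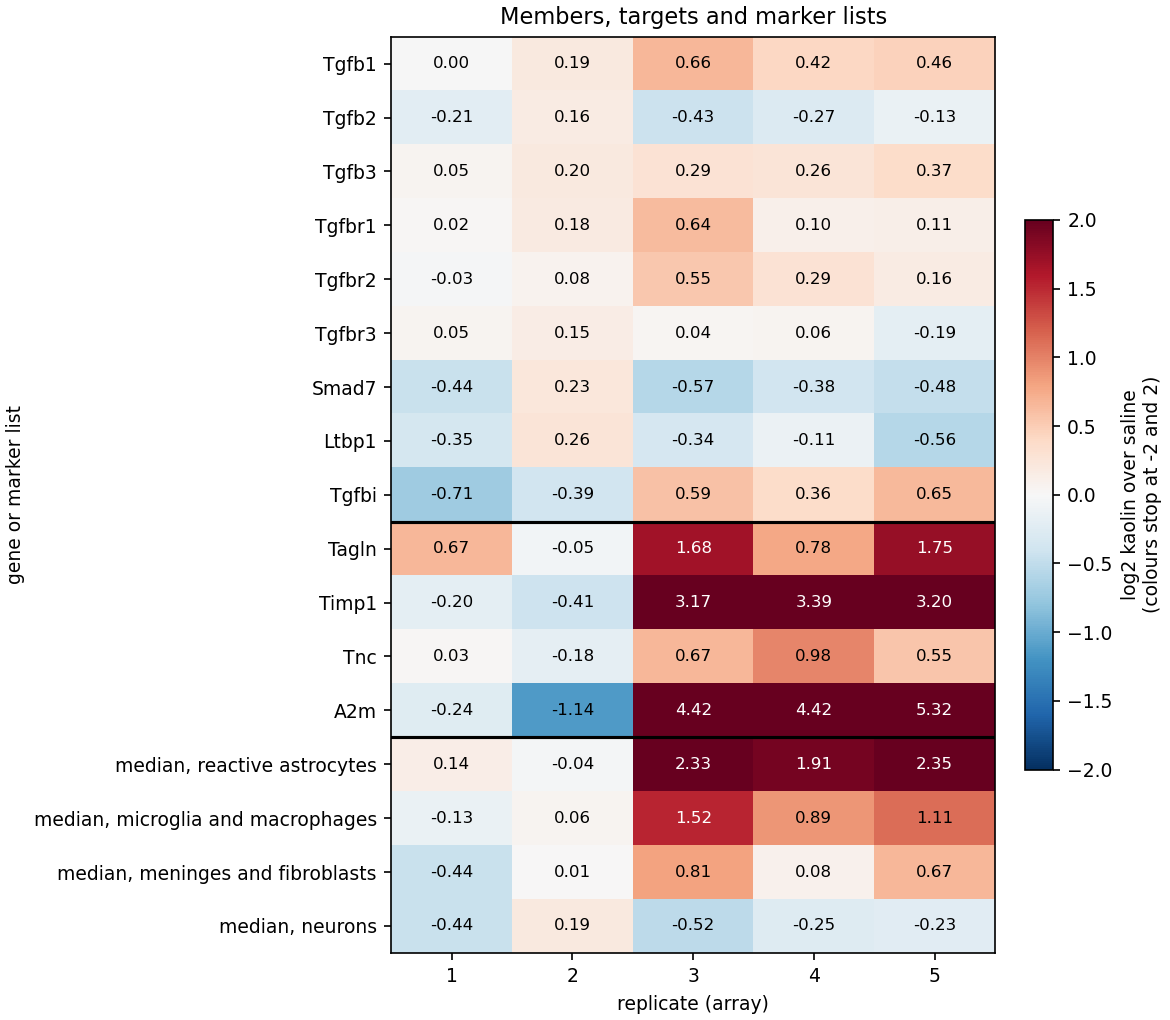
Log2 ratio of kaolin over saline on each array (columns) for the 9 tested members, 4 pathway genes and the medians of 4 cell type marker lists (rows), as colour and number. Reactive astrocyte markers and Timp1, Tnc, A2m and Tgfbi are high in replicates 3, 4 and 5 and near or below 0 in replicates 1 and 2, while Tgfb3 is above 0 in all 5.

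Markers of cell types were read beside these values, since in bulk tissue fewer cells of a type and less RNA per cell cannot be told apart. All 7 tested markers of reactive astrocytes had a mean above 0, and their array medians were 0.14, -0.04, 2.33, 1.91 and 2.35 in replicates 1 to 5. All 14 tested markers of microglia and macrophages did too, with array medians of -0.13, 0.06, 1.52, 0.89 and 1.11. The arrays high in both lists were those on which Tgfb1, Nrros, Tgfbi, Timp1 and A2m were high, while Pmepa1 was lowest in replicates 3 and 5. Ratios of these arrays also correlated over all tested probes, at 0.83 for replicates 3 and 4, 0.57 for 3 and 5, and 0.45 for 4 and 5. Replicate 1 correlated with them as well, at 0.53 with replicate 3, 0.48 with replicate 4 and 0.12 with replicate 5. Replicate 2 did not, at -0.17, -0.07 and -0.06, so these correlations do not set replicates 3 to 5 apart from replicate 1. Gfap, the astrocyte filament gene, was at 0.39, 0.60, 2.81, 2.32 and 2.95, and C1qb, a microglial complement gene, at 0.33, 0.41, 2.36, 1.91 and 2.53. The part of these cells in the values of the pathway genes was not tested.

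Of 9 tested markers of meninges and fibroblasts 8 had a mean above 0, with array medians of -0.44, 0.01, 0.81, 0.08 and 0.67. These ran lowest in replicate 1, as Tgfbi did. Of 8 markers of astrocytes in general 2 had a mean above 0, with array medians of -0.21, 0.24, -0.17, -0.04 and 0.22, which did not follow the reactive markers. All 4 markers of ependyma had a mean above 0, with array medians of 0.40, -0.13, 0.86, 1.103 and 0.74, again highest in replicates 3, 4 and 5. Of 8 neuronal markers 1 had a mean above 0, with array medians of -0.44, 0.19, -0.52, -0.25 and -0.23, and replicate 2 was the only array above 0 there, as for Tgfb2, Smad7 and Ltbp1. This is not particular to these genes. Replicate 2 held the highest ratio on 8020 and the lowest on 7849 of the 29114 tested probes, more than any other array. The 5 choroid plexus markers read in both channels had a mean below 0, with array medians of -0.66, -0.65, -0.92, -0.16 and -0.03, and another 2 passed the filter only through saline samples. Ttr, its thyroxine carrier gene, was at -2.85 ± 1.80 (limma adjusted p = 0.24). The part of meninges, ependyma, neurons or choroid plexus in the members' values was not tested. All 8 neuronal markers were bright enough to test in this cortex.

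Ptk7, Cpt1a, Zdhhc18, Csk and Slc14a1 were the genes whose ratios ran closest to those of Tgfb1, the member with the largest mean, among 12273 genes compared. Closeness was the root-mean-square difference in log2 ratio over the 5 arrays, which was 0.04 for Ptk7 and 0.06 for Slc14a1. Ptk7, a receptor-like pseudokinase gene, was at -0.0017, 0.20, 0.59, 0.37 and 0.47 in replicates 1 to 5. Cpt1a, the gene of the enzyme that admits fatty acids to mitochondria, was at 0.05, 0.20, 0.62, 0.50 and 0.48. These points share the 5 arrays and their normalization, and the likeness is a description without a test.

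**Figure D5:**
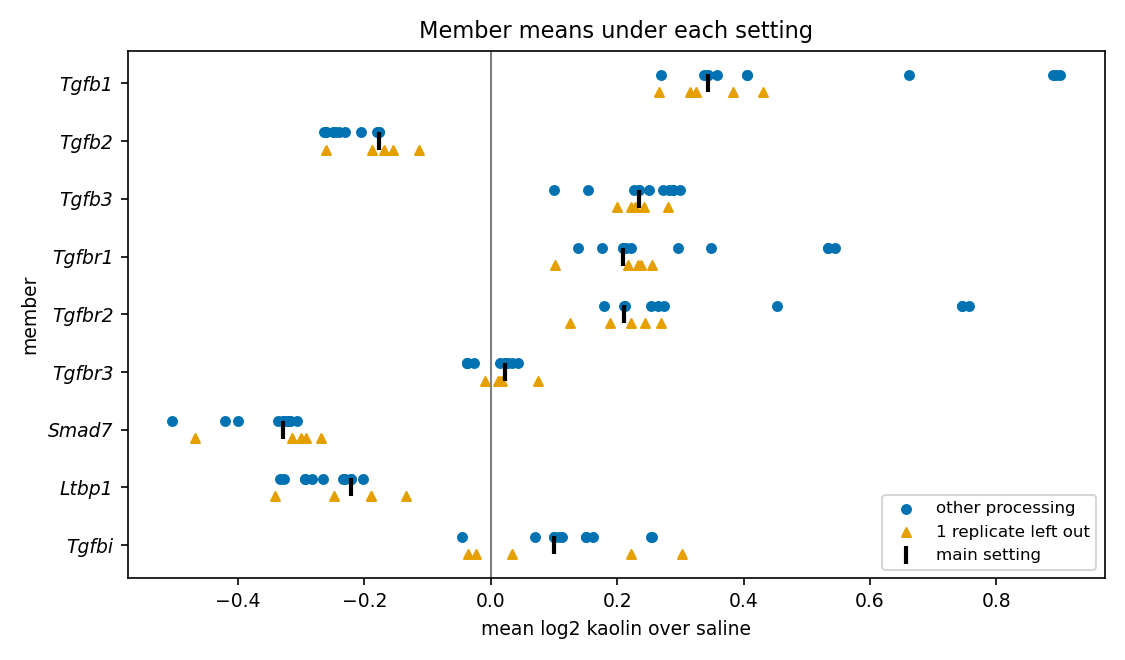
Mean log2 ratio of kaolin over saline (x axis) of the 9 tested members (y axis) under the main processing (bar), other processing (circles) and with 1 replicate left out (triangles). Tgfb1 runs from 0.27 to 0.90 and stays above 0, Smad7 runs from -0.50 to -0.27 and stays below it, and Tgfbr3 and Tgfbi have values on both sides.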

How the data were processed

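Per the file headers, Agilent Feature Extraction 10.1.1.1 gave the deposited mean signals and local backgrounds (intensity), processed signals (intensity) and log10 ratios of Cy5 over Cy3; deposited spot flags are other values. The series matrix deposited by the authors holds log2 values, found to be Cy3 over Cy5 from the values themselves (correlation with the log10 ratios from -1.00 to -0.978); its column medians were 0.02, -0.05, -0.02, 0.09 and -0.10, and its normalization by the authors is not stated in the labels or headers.

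Outlier spots (86 to 147 per array) were left out; 0 spots were saturated. Signals were corrected with normexp (offset 50), normalized by loess within each array, and spots of a probe averaged. Kaolin and saline levels are channel signals after loess and Aquantile, open to dye bias. Tested probes were well above background on 3 or more of 5 arrays, in either channel. A gene is its brightest tested probe. A bound for a dim channel takes, per array, the higher of the probe's signal and the lowest signal among probes well above background.

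Ratios were tested against 0 with lmFit and eBayes in limma 3.58.1 (R 4.3.3, data.table, version 1.17.8), two-sided, adjusted over 29114 probes, after tests on simulated data. Intervals of pair differences use the SD over arrays. Members and lists were chosen with earlier results of these data known. Named were all members, the 4 genes of each pathway list and 2 of each marker list with the smallest p, of which some markers are given as list medians or not reported here, and the 5 genes closest to Tgfb1. Symbols came from RefSeq annotation (GRCr8), by accession for 10768 probes; 19837 probes have an official symbol. Alternatives covered background correction, normalization, filters, array weights, slide as a random block and leaving out each replicate.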

Additional observations from a re-analysis of the deposited data

Results flagged for a closer look

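Of 80 groups of 5 array values examined, 3 held an array far from the other 4 (gap over range above 0.71), where chance alone marks about 1 group in 20. For the brightest Tgfbr1 probe this was replicate 3 at 0.636 (gap over range 0.75). For Smad7 it was replicate 2 at 0.229, the only array on the kaolin side (gap over range 0.76). For the median of the oligodendrocyte markers it was replicate 5 at -0.632 (gap over range 0.73).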

How the results depend on the processing

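Under the alternatives the 0 probes past the threshold became, on the kaolin side, 1572 with array weights, 245 with the sign of replicate 2 turned (chosen after seeing the data) and 0 to 716 with 1 replicate left out (716 without replicate 2). On the saline side they became 1911, 244 and 0 to 820 (820 without replicate 2, 1 without replicate 1), and 22 under median centring. Members past it were 3 with array weights, 1 with the sign turned and 0 to 1 with 1 replicate left out. Pathway genes past it were 9 with array weights and 0 to 3 with 1 replicate left out.

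Median centring shifted the median of all tested genes by -0.12, to -0.10. It gave list medians of -0.15 (Smads, cofactors and brakes) and -0.10 (induced targets), and turned Tgfbi to -0.046, Bambi to -0.028, Cspg4 to -0.11 and Mag to -0.18. Normexp with offset 0 gave -0.30 for the other ligands. Tgfbr3 was -0.027 with processed signals, -0.038 with the software's log ratio and with the series matrix, and -0.037 with the sign turned. That sign change also gave -0.051 for Cspg4, -0.0023 for Mag and 0.16 for Alas2. Tgfbr1 minus Tgfbr2, where the saline side of Tgfbr2 was not well above background, was 0.032 without background subtraction and -0.21 with processed signals. With 1 replicate left out, Tgfbr3 ran from -0.0097 to 0.074, Tgfbi from -0.037 to 0.30, Alas2 from -0.28 to 0.013 and Tgfbr1 minus Tgfbr2 from -0.026 to 0.048. The causes were not tested. Tgfb1, Tgfb2, Tgfb3, Tgfbr2, Smad7 and Ltbp1 kept their sign in every alternative run, as did the brightest Tgfbr1 probe. Tgfb1 and Tgfbr2 lay close to background, which limits their values.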
